A study of Mus musculus with 3 samples.

Results

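The 7 genes described here, *Chga*, *Chgb*, *Scg2*, *Scg3*, *Scg5*, *Vgf* and *Pcsk1n*, encode granins and related proteins of the dense-core secretory granule. They were taken by name from the count tables, and all 7 were listed in each of the 3 tables, among 17226 genes listed in at least 1 table. Their unique molecular identifiers (UMIs, each a tag of 1 captured RNA molecule) were summed over beta, alpha and delta cells of each library. A beta cell was a barcode with at least 20% of its UMIs from *Ins2* and under 3% from *Gcg*. An alpha cell had at least 15% *Gcg* and under 10% *Ins2*, and a delta cell at least 5% *Sst* and under 5% *Gcg*. In the 1-week library the limits were 5% *Ins2*, 8% *Gcg* and 1.5% *Sst*, and cells needed at least 5000 UMIs.

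The study inactivated Taf4, a subunit of the general transcription factor TFIID, in adult beta cells of C57/Bl6 mice, and asked how islet gene expression changed. Mutants (Taf4 b-/-) carried floxed *Taf4* alleles and *Ins1*::Cre-ERT2, a tamoxifen-inducible recombinase driven by the promoter of an insulin gene. WT animals were *Taf4*+/+, and the study describes its *Taf4*+/+ controls as carrying the same Cre. Per the methods, both genotypes received tamoxifen on 3 days at 11 to 13 weeks of age. Droplet 3′ single-cell RNA-seq was made from sorted live islet cells 1 week and 5 weeks later for the mutants, each time from 300 islets of a pool of 2 mice, and for WT from 300 islets of 1 mouse with no time given, and the labels call these mice male. The Cre is driven by an insulin promoter, but cells were classed here by their hormones and not by descent, so whether alpha or delta cells of the mutant libraries carried the deletion was not tested.

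There was 1 library per condition, so no test between conditions was possible, no p-value is given, and genotype, animal and library cannot be told apart. Intervals in parentheses are exact 95% intervals that cover counting error only. The tables held 12000 barcodes and 19472212 UMIs for WT, 2295 barcodes and 23131247 UMIs at 1 week, and 11229 barcodes and 39408284 UMIs at 5 weeks. From 2 to 33 barcodes were shared between a pair of libraries. *Taf4* stood at 5.24 CPM in WT (4.27 to 6.36), 8.47 CPM at 1 week (7.33 to 9.75) and 4.06 CPM at 5 weeks (3.46 to 4.74), where CPM is the gene's UMIs scaled to a total of 1000000 UMIs. The sources used here do not place the deleted part of *Taf4* relative to the 3′ end that is counted, so these levels do not check the genotype. The library labelled male WT went against its label: it held 17357 *Xist* UMIs and 0 UMIs of *Ddx3y*, *Eif2s3y*, *Kdm5d* and *Uty*, whereas each of these Y-linked genes had at least 239 UMIs in both mutant libraries and *Xist* had 17 and 11. By these genes the WT library and the mutant libraries differ in sex. Sex therefore cannot be told apart from genotype in any comparison to WT, for each of the 7 genes. *Pcsk1n* also lies on chromosome X.

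The classes held 8271 beta, 2772 alpha and 621 delta cells in WT, 562, 172 and 38 cells at 1 week, and 5685, 3011 and 1342 cells at 5 weeks. Of the 11 beta markers measured, 9 or 10 per library were highest in the beta class. Of 11 alpha markers 8 to 10 were highest in the alpha class, and all 8 delta markers were highest in the delta class. Each list includes the hormone gene that set its class (*Ins2*, *Gcg* or *Sst*), and the lists were chosen with earlier results known. These counts are therefore no independent check of the classes. The delta class also had the highest summed level of the PP markers *Ppy* and *Pyy*, 61452 CPM in WT, 70015 CPM at 1 week and 61616 CPM at 5 weeks, and the part of such cells in its values was not tested. Median depth differed widely. It was 1656 UMIs a beta cell in WT, 24755 at 1 week and 3868 at 5 weeks. Insulin, glucagon and somatostatin genes (*Ins1*, *Ins2*, *Gcg* and *Sst*) took 59.3% of beta-cell UMIs in WT, 39.4% at 1 week and 60.0% at 5 weeks, so the comparisons were repeated with these 4 genes left out of the total.

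Granins are acidic soluble proteins that aggregate with prohormones in the trans-Golgi network and become the matrix of dense-core granules. In islets they are stored and released together with insulin, glucagon or somatostatin, and several are cut into peptides with activities of their own. Chromogranin A (*Chga*), chromogranin B (*Chgb*) and secretogranin II (*Scg2*) are matrix proteins, secretogranin III (*Scg3*) links the matrix to cholesterol-rich granule membrane, and *Vgf* encodes a growth factor-inducible peptide precursor. *Scg5* and *Pcsk1n* encode small proteins that bind the prohormone convertases: *Scg5* is the chaperone of the *Pcsk2* enzyme and *Pcsk1n* (proSAAS) is an inhibitor of the *Pcsk1* enzyme.

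In GRCm38.p6 (mm10) the genes lie on 6 chromosomes. *Chga* is on chromosome 12 from 102554941 to 102565027, and *Scg2* on chromosome 1 from 79434366 to 79440026. *Chgb* and *Scg5* are both on chromosome 2, from 132781642 to 132795079 and from 113776313 to 113829091. *Scg3* is on chromosome 9 from 75643366 to 75685959, *Vgf* on chromosome 5 from 137025301 to 137033351 and *Pcsk1n* on chromosome X from 7919822 to 7924410.

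Promoter sequences are shown because the genes did not move together, and their upstream sequence shows what some of them share apart from the counts. The 150 bases before the RefSeq start were read for the 6 genes with an entry, all but *Vgf*. Both strands were searched for TGACGTCA (the palindromic cAMP response element), for its shorter form TGACG, which TGACGTCA contains on each strand, and for TATAA. Capitals mark matches:
Chgb (chr2:132781492-132781641, plus strand): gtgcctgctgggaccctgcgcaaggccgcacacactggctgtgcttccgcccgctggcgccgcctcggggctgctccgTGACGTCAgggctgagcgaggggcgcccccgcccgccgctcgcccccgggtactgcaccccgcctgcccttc
Scg2 (chr1:79440027-79440176, minus strand): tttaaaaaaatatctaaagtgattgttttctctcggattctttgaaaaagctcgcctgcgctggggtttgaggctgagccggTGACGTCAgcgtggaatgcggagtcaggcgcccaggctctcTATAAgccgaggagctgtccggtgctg
Chga (chr12:102554791-102554940, plus strand): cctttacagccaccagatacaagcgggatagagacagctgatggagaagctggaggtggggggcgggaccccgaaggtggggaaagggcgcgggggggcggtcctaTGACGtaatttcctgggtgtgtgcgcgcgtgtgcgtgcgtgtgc
Scg3 (chr9:75684057-75684206, minus strand): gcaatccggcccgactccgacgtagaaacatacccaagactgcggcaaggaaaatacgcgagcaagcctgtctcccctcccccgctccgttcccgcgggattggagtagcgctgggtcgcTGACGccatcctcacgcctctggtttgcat

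TGACGTCA stood 72 to 65 bases before the start of *Chgb* and 68 to 61 bases before that of *Scg2*, the sequences above with 8 capitals in a row. It was found in 447 of 32851 windows of the same length, 1.36%. The *Scg3* window precedes the RefSeq start of the promoter entry, which lies inside the outermost limits of the gene, 1753 bases from its 5′ limit, whereas the other 5 windows abut the gene. TGACG without the full palindrome stood 44 to 40 bases before the start of *Chga* and 30 to 26 bases before that start of *Scg3*, so 4 of the 6 windows held TGACG, against 13.3% of all windows. TATAA stood 27 to 23 bases before *Scg2* and was found in 14.2% of all windows. The windows of *Scg5* and *Pcsk1n* held none of the 3 motifs. A match describes the sequence only, and no factor was measured at these positions.

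The 3 cell types differed first in their levels. UMIs of a 3′ library count captured molecules and not length, so levels are set side by side between genes. Differences in capture between genes were not measured. In WT beta cells *Pcsk1n* was at 1955 CPM (1933 to 1976), *Chga* at 1752 CPM (1731 to 1772) and *Scg2* at 913 CPM (898 to 928). *Scg5* followed at 455 CPM, *Chgb* at 437 CPM and *Scg3* at 236 CPM. *Vgf* came last at 3.68 CPM (2.80 to 4.74), from 59 UMIs in 8271 cells. The convertase inhibitor and chromogranin A thus had the most UMIs of the 7 transcripts in WT beta cells. The counting intervals of neighbours in this order overlapped nowhere except between *Scg5* (445 to 466) and *Chgb* (426 to 447), where they met.

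WT alpha cells carried 10444 CPM *Pcsk1n* (10314 to 10576), the highest level of any of the 7 genes in any class. *Chga* was at 1989 CPM, *Scg5* at 1783 CPM and *Scg2* at 420 CPM. *Chgb* at 326 CPM (304 to 350) and *Scg3* at 308 CPM (286 to 331) did not separate, and *Vgf* was at 30.5 CPM (23.9 to 38.5). *Pcsk1n* made up 68.3% of the UMIs of the 7 genes in alpha cells and *Scg5* 11.7%, less than *Chga*. *Pcsk1n* was also the largest share in delta cells, at 42.7%.

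WT delta cells had 5625 CPM *Pcsk1n* (5406 to 5851) and the highest WT level of *Chgb*, 2421 CPM (2278 to 2571). *Scg2* was at 1966 CPM, *Chga* at 1734 CPM (1614 to 1862) and *Scg5* at 1113 CPM. *Scg3* was at 326 CPM (275 to 384). *Vgf* gave 1 UMI in 621 delta cells, 2.27 CPM (0.0574 to 12.6). In CPM the delta interval of *Chga* held the beta value of 1752 CPM. Without hormone UMIs *Chga* differed between the classes, at 4307 per 1000000 UMIs in beta, 3199 in alpha and 2203 in delta cells, and *Scg3* was at 580, 495 and 415.

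**Figure D1:**
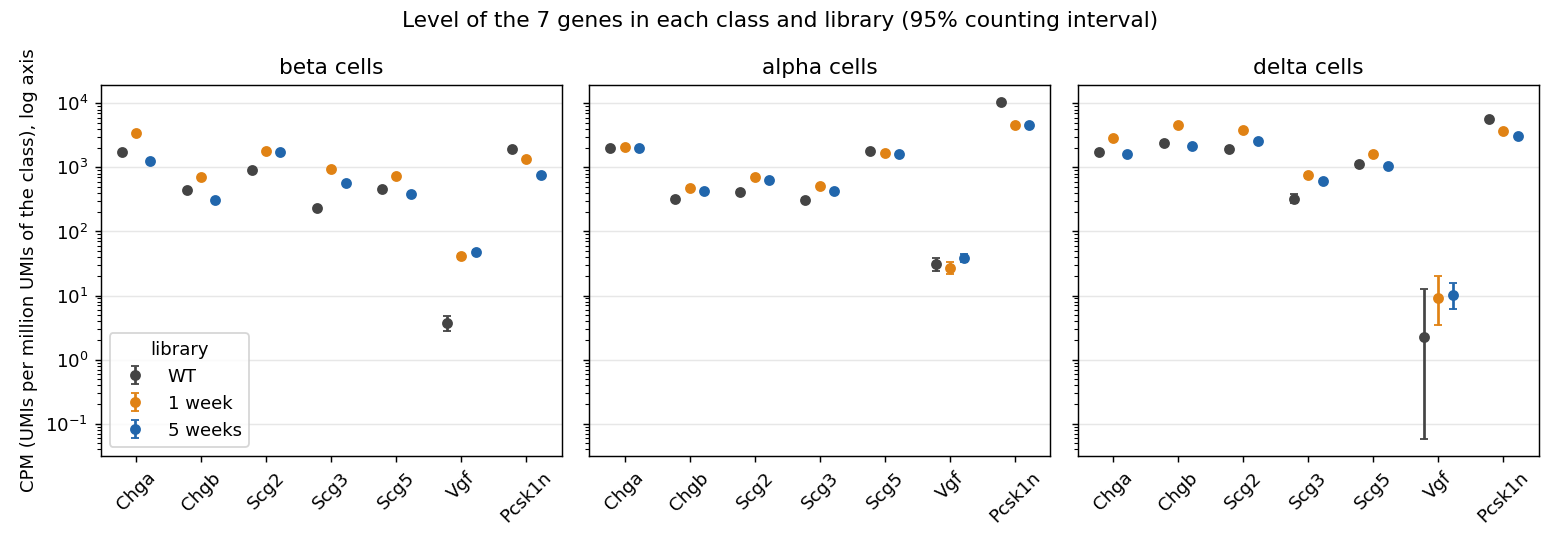
Level of each of the 7 genes in beta, alpha and delta cells (panels), in CPM on a log axis, for the WT, 1-week and 5-week libraries (colours), with exact 95% counting intervals and 1 library per point. Vgf in beta cells sits at 3.68 CPM in WT and at 41.0 and 48.4 CPM in the mutant libraries, and Pcsk1n is below WT in the mutant libraries in each panel.

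The background of free or admixed RNA was read from droplets that should lack granins. The WT library offered 56 acinar droplets (median 1995 UMIs), the 1-week library 22 non-endocrine droplets, 19 of them with macrophage markers, and the 5-week library 222 endothelial droplets (median 1193 UMIs). Together the 7 genes reached 1941 CPM in the WT droplets, 278 CPM at 1 week and 878 CPM at 5 weeks, against 5751, 9005 and 5033 CPM in beta cells. The WT acinar droplets held 2.68 *Pcsk1n* UMIs each, compared with 3.79 in a beta cell, 8.88 in an alpha cell and 3.995 in a delta cell. The 5-week endothelial droplets held 0.257. The WT acinar droplets also held 33.4 *Gcg* UMIs each, while a WT beta cell held 10.7% of that amount.

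With each cell thinned to 500 UMIs, *Vgf* was seen in 0.266% of WT beta cells (0.167 to 0.402), 2.31% at 1 week (1.24 to 3.92) and 2.29% at 5 weeks (1.91 to 2.71). Without thinning the shares were 0.701%, 45.6% and 19.0%, at median depths of 1656, 24755 and 3868 UMIs. Non-endocrine droplets gave 0 of 56 in WT, which allows a share of up to 5.36%, 0 of 19 at 1 week and 0.450% at 5 weeks (0.0114 to 2.48). So the WT share of *Vgf* cannot be separated from the background, and the 1-week background share is too thinly counted to compare. The 5-week share in beta cells lay above the endothelial value, but within that value's interval. In CPM the intervals did separate in the mutant libraries. At 1 week beta cells had 41.0 CPM (37.8 to 44.4) and non-endocrine droplets 0 UMIs (up to 26.3 CPM). At 5 weeks the levels were 48.4 CPM (45.8 to 51.0) and 10.5 CPM (2.16 to 30.7). In WT they were 3.68 CPM (2.80 to 4.74) and 6.43 CPM (0.163 to 35.8), which overlapped.

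*Scg3* was seen in 11.3% of WT beta cells (10.6 to 12.0), 35.2% at 1 week (31.3 to 39.3) and 26.0% at 5 weeks (24.9 to 27.2). The non-endocrine shares were 8.93% in WT (2.96 to 19.6), 15.8% at 1 week and 4.95% at 5 weeks. In WT the thinned shares of beta cells and acinar droplets did not separate, although unthinned they were 35.2% and 14.3% and the levels were 236 CPM (228 to 243) and 51.4 CPM (22.2 to 101). In the 5-week beta cells the share was above that of the endothelial droplets. *Pcsk1n* was seen in 61.4% of WT beta cells, 47.2% at 1 week and 31.3% at 5 weeks, against 39.3% of WT acinar droplets (26.5 to 53.2), 15.8% at 1 week and 7.66% at 5 weeks. In alpha cells it was seen in 98.4%, 87.8% and 87.1%. *Chgb* was seen in 64.1% of WT delta cells (60.2 to 67.9), 94.7% at 1 week and 65.0% at 5 weeks, compared with 18.5%, 30.4% and 15.9% of beta cells.

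**Figure D2:**
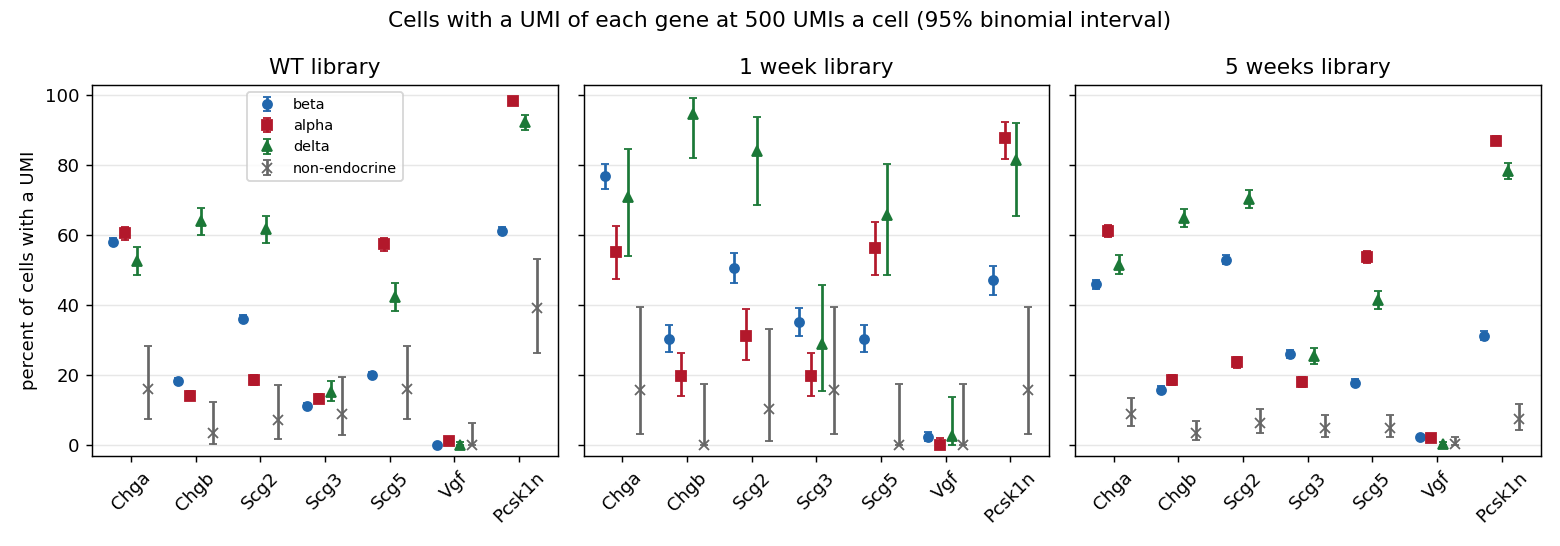
Percent of cells with at least 1 UMI of each gene after thinning each cell to 500 UMIs, with exact 95% binomial intervals, in the 3 classes and in non-endocrine droplets (crosses) of each library. In WT the acinar crosses reach 39.3% for Pcsk1n, while at 5 weeks the endothelial crosses stay at or below 9.01% for each gene.

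Alpha and beta cells were compared within each library, where they share preparation and sequencing. In WT, 4 of the 7 genes differed by over 2-fold, as did 24.9% of the 6824 genes with at least 100 UMIs. *Vgf* was 8.30-fold higher in alpha cells (log2 ratio 3.05, 2.54 to 3.58), *Pcsk1n* 5.34-fold higher (log2 ratio 2.42) and *Scg5* 3.92-fold higher (log2 ratio 1.97), whereas *Scg2* was lower (420 against 913 CPM, log2 ratio -1.12). At 1 week the count was 3 of 7, against 16.1% of genes, and at 5 weeks 3 of 7, against 23.2%. *Pcsk1n* stayed higher in alpha cells, by 1.73 and 2.58 on the log2 scale, as did *Scg5*, by 1.18 and 2.04, and *Scg2* stayed lower, at log2 ratios of -1.31 and -1.46. *Vgf* did not: its alpha-to-beta log2 ratio was -0.59 at 1 week (-0.92 to -0.29) and -0.33 at 5 weeks (-0.54 to -0.13). The WT order of the *Vgf* levels, alpha above beta, was thus inverted in both mutant libraries, and it was the beta level that differed most between libraries. At 5 weeks the inversion was lost with the 1-week class limits, which left 32 alpha cells and a ratio of 0.05, and it was -0.07 after the scaled subtraction. Without hormone UMIs these 4 ratios kept their signs in each library, and the *Scg5* ratio at 1 week came to 0.87, short of 2-fold.

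Between delta and beta cells, 4 of 7 genes passed 2-fold in WT, 5 at 1 week and 4 at 5 weeks, against 49.5%, 21.1% and 47.6% of all genes. *Chgb* showed the largest of these differences among the genes higher in delta cells. It was 5.55-fold higher in delta cells in WT, 6.35-fold at 1 week and 6.86-fold at 5 weeks (log2 ratios 2.47, 2.67 and 2.78). *Pcsk1n* was higher by 1.52, 1.45 and 2.03 and *Scg5* by 1.29, 1.12 and 1.43 on the log2 scale. *Scg2* was higher by 1.11, 1.13 and 0.58. *Vgf* was lower in delta cells at log2 ratios of -2.14 at 1 week and -2.24 at 5 weeks. The median gene itself stood 0.94 higher in delta than in beta cells in WT, 0.43 higher at 1 week and 0.94 higher at 5 weeks. Relative to that median *Chgb* was still higher by 1.53, 2.24 and 1.84, but *Scg5* by only 0.35, 0.69 and 0.49, and the *Scg2* ratio at 5 weeks turned to -0.36. With hormone UMIs left out, 2 of 7 passed 2-fold in the WT library, against 17.5% of all genes. For the 1-week library it was 2 against 16.1%, and for the 5-week library 3 against 14.6%. Both the number of members and the share of all genes thus fell. In WT *Vgf* was among the 2, at a log2 ratio of -1.65. That ratio rests on 1 delta UMI, and *Vgf* was outside the genes behind the WT percentage.

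At 5 weeks after tamoxifen, beta cells of the mutant library had more *Vgf*, *Scg3* and *Scg2*, and less *Pcsk1n*, *Chga* and *Chgb*, than WT beta cells. Of the 7 genes 3 passed 2-fold, with *Vgf* and *Scg3* higher and *Pcsk1n* lower, as did 10.6% of the 9203 genes tested (6.37% higher and 4.18% lower). *Vgf* was at 48.4 CPM (45.8 to 51.0) against 3.68 CPM, from 1353 and 59 UMIs. That is 13.1-fold higher, a log2 ratio of 3.72 (3.34 to 4.12), and the fourth highest of all genes tested. With the RNA per droplet of the non-endocrine droplets subtracted, and scaled so that no more *Gcg* was removed than beta cells held, the log2 ratio was 4.27.

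*Scg3* was at 567 CPM (558 to 576) at 5 weeks against 236 CPM (228 to 243) in WT, 2.40-fold higher, a log2 ratio of 1.27 (1.21 to 1.32). *Scg2* was at 1717 CPM against 913 CPM, 1.88-fold higher, a log2 ratio of 0.91 (0.88 to 0.94). The matrix proteins did not move as 1 group. *Chga* was at 1238 CPM against 1752 CPM, a log2 ratio of -0.50 (-0.52 to -0.48), and *Chgb* at 310 CPM against 437 CPM, a log2 ratio of -0.49 (-0.54 to -0.45). *Scg5* was at 388 CPM against 455 CPM, a log2 ratio of -0.23 (-0.27 to -0.19). The median gene had a log2 ratio of 0.18, and each of these 6 genes kept its sign relative to that median and without hormone UMIs. *Scg5* did not keep it when the full content of each library's own non-endocrine droplets was subtracted. Its ratio was then 1.03, and it was -0.03 after the scaled subtraction. The median of the 7 genes was -0.23. Acinar markers summed to 4971 CPM in WT beta cells and 573 CPM in 5-week beta cells, and their part in these differences was not tested.

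*Pcsk1n* was at 764 CPM (754 to 774) in 5-week beta cells against 1955 CPM (1933 to 1976) in WT, 2.56-fold lower, a log2 ratio of -1.36 (-1.38 to -1.33). Per cell the counts were similar, 3.76 UMIs against 3.79, at median depths of 3868 and 1656 UMIs. The value depends on how RNA from other droplets is treated. It was -1.16 after the scaled subtraction and -0.0015 when the full content of each library's own non-endocrine droplets was subtracted. In WT the full subtraction removes more *Gcg* than beta cells held. *Pcsk1n* is X-linked, and the 301 X-linked genes tested had a median log2 ratio of -0.05, compared with 0.19 for 8616 autosomal genes. Of the X-linked genes 6.64% were over 2-fold lower.

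**Figure D3:**
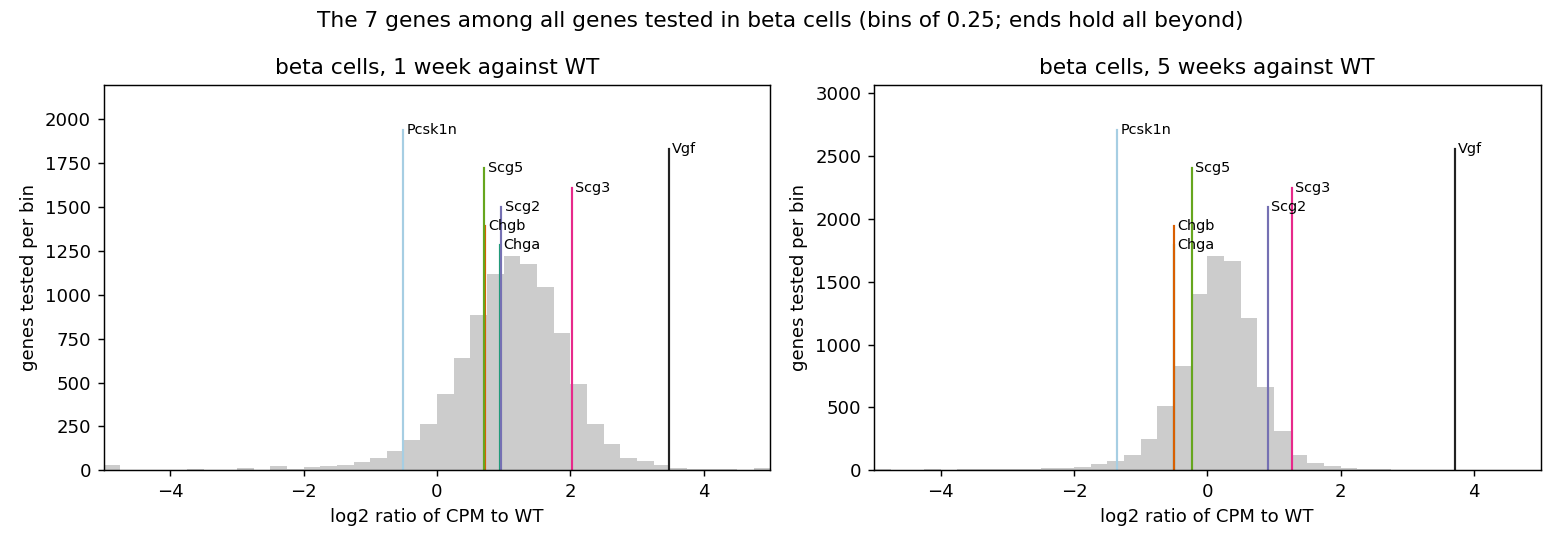
Distribution of log2 CPM ratios to WT over all genes with at least 100 UMIs in beta cells (grey, genes per bin) at 1 week and 5 weeks, with the 7 genes drawn as coloured lines. At 1 week the distribution centres on 1.15, so Chga, Chgb, Scg2 and Scg5 lie left of its middle despite ratios above 0, and at 5 weeks it centres on 0.18.

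At 1 week the whole profile of beta cells, as classed here, was shifted relative to WT. The median gene had a log2 ratio of 1.15 to WT, 0.58 without hormone UMIs, and 60.0% of the 9221 genes tested passed 2-fold (57.6% higher and 2.41% lower). Without hormone UMIs 2590 genes were higher and 439 lower, and with the median gene at 0 these numbers were 746 and 1066. The cell limits of the methods include 200 to 1500 genes a cell. Few 1-week beta cells, with a median of 4731 genes, met these limits. In those few the median gene had a log2 ratio of -0.40, with 515 of 4551 genes over 2-fold higher and 1391 lower. In the whole class 2 of the 7 genes passed, *Scg3* and *Vgf*, both higher. *Vgf* was at 41.0 CPM (37.8 to 44.4), a log2 ratio of 3.48 (3.09 to 3.89), or 2.33 above the median gene. *Scg3* was at 961 CPM (946 to 977), a log2 ratio of 2.03, or 0.88 above the median gene. These 2 were higher than WT on each of the 3 scales.

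*Chga*, *Scg2*, *Chgb* and *Scg5* were higher in CPM and lower relative to the median gene. *Chga* was at 3385 CPM, a log2 ratio of 0.95, or -0.20 relative to the median. *Scg2* was at 1783 CPM, a log2 ratio of 0.97, or -0.19. *Chgb* at 719 CPM had 0.72, or -0.43, and *Scg5* at 745 CPM had 0.71, or -0.44. The direction of these 4 at 1 week therefore depends on the scaling. *Pcsk1n* was at 1370 CPM (1352 to 1389), a log2 ratio of -0.51, which was -1.09 without hormone UMIs and -1.66 relative to the median gene. It was 0.91 with the full non-endocrine content subtracted, 0.57 in the 17 beta cells that met the cell limits of the methods, and -0.22 after the scaled subtraction. The 301 X-linked genes tested had a median of 0.75 and the 8649 autosomal genes 1.17. The 1-week cells were chosen by their own limits at a median of 24755 UMIs against 1656 in WT, and acinar markers summed to 15.9 CPM in them against 4971 CPM in WT. The part of either in these ratios was not tested.

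In alpha cells *Pcsk1n* was again lower and was the only 1 of the 7 past 2-fold at either time, against 37.1% of 5211 genes at 1 week and 4.42% of 5479 genes at 5 weeks (4.66% and 1.41% lower). It was at 10444 CPM in WT, 4555 CPM at 1 week (4486 to 4625) and 4562 CPM at 5 weeks (4508 to 4617), and the mutant libraries did not separate from each other. The log2 ratios to WT were -1.20 at 1 week and -1.19 at 5 weeks. The full non-endocrine subtraction left -1.03 at 5 weeks and the scaled one -0.69, short of 2-fold. X-linked genes had medians of 0.13 and -0.09 in alpha cells, and autosomal genes 0.65 and 0.07. Acinar markers summed to 11007 CPM in WT alpha cells, 7.41 CPM at 1 week and 1655 CPM at 5 weeks, and their part was not tested.

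The remaining genes differed less in alpha cells, where the median gene had a log2 ratio of 0.63 at 1 week and 0.06 at 5 weeks. *Scg2* was at 420, 720 and 626 CPM in WT, at 1 week and at 5 weeks, and *Scg3* at 308, 510 and 422 CPM. *Chgb* was at 326, 485 and 424 CPM. *Chga* was at 1989, 2101 and 2030 CPM, with overlapping intervals for WT (1932 to 2047) and 5 weeks (1994 to 2066). Its ratio at 1 week was 0.08, or -0.55 relative to the median gene. With the full non-endocrine subtraction the *Chga* ratio was 1.19 at 1 week and 1.43 at 5 weeks. *Scg5* was at 1783, 1694 and 1591 CPM. *Vgf* was at 30.5 (23.9 to 38.5), 27.2 (22.1 to 33.1) and 38.5 CPM (33.7 to 43.8), so its log2 ratios of -0.17 (-0.62 to 0.29) and 0.34 (-0.05 to 0.74) did not exceed counting error. The *Vgf* ratios of 3.48 and 3.72 in beta cells stand beside these, and the difference between the cell types was not tested.

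In delta cells 2 of 7 genes passed 2-fold at 1 week, *Scg3* and *Vgf*, and 1 at 5 weeks, *Vgf*, against 25.4% and 5.28% of all genes. Without hormone UMIs *Scg3* was short of 2-fold at 1 week (log2 ratio 0.98). The *Vgf* counts were 1 UMI in WT, 6 at 1 week and 20 at 5 weeks, too few to set a ratio: log2 2.04 (-1.01 to 7.56) and 2.18 (-0.47 to 7.55). With fewer than 100 UMIs *Vgf* was outside the genes behind those percentages. *Scg3* was at 326 CPM in WT, 757 CPM at 1 week and 623 CPM at 5 weeks (588 to 659), log2 ratios of 1.21 and 0.93. *Scg2* was at 1966, 3891 and 2568 CPM and *Chgb* at 2421, 4567 and 2128 CPM, so both were highest at 1 week. At 5 weeks *Scg2* was above WT and *Chgb* below it. *Chga*, at 1734, 2831 and 1636 CPM, and *Scg5*, at 1113, 1617 and 1047 CPM, had the order of *Chgb*, but their 5-week log2 ratios of -0.08 (-0.20 to 0.03) and -0.09 (-0.23 to 0.06) did not exceed counting error. WT delta cells held 1.23 *Chga* UMIs each and acinar droplets 1.21, and with the full subtraction the *Chga* ratios were 5.87 and 5.55. After the scaled subtraction the 5-week ratio was 0.71 for *Chga*, 0.70 for *Scg5* and 0.48 for *Chgb*. *Pcsk1n* was at 5625, 3746 and 3112 CPM, log2 ratios of -0.59 and -0.85. Its ratio at 5 weeks was -0.05 after the scaled subtraction, and the full one turned both ratios, to 0.07 and 0.36. The 1-week values rest on 38 delta cells. The delta class held *Ins2* at 42954 CPM in WT, 8561 CPM at 1 week and 116356 CPM at 5 weeks. At 5 weeks 128 cells met the beta rule as well, and the part of beta-cell RNA in the delta values was not tested. Acinar markers summed to 14780 CPM in WT delta cells, 7.75 CPM at 1 week and 2330 CPM at 5 weeks, and their part was not tested.

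**Figure D4:**
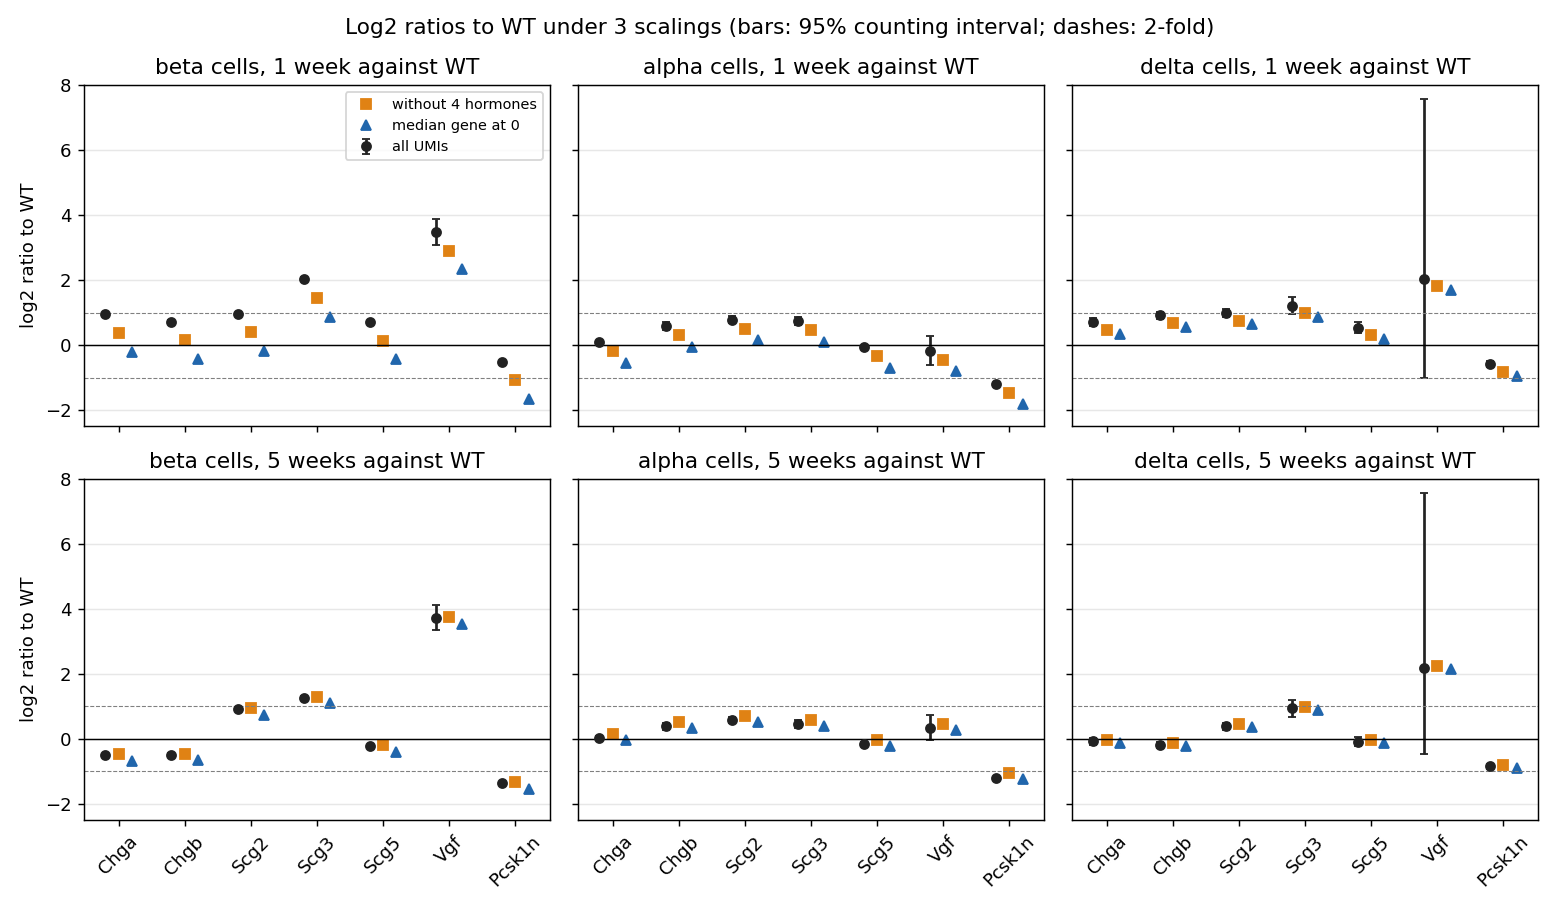
Log2 ratio to WT of each gene in the 3 classes at 1 week (top) and 5 weeks (bottom), in CPM with exact 95% counting intervals (circles), without hormone UMIs (squares) and with the median gene set to 0 (triangles). Vgf and Scg3 in beta cells lie above 0 and Pcsk1n below 0 on the 3 scales at both times, and the wide bars in delta cells belong to Vgf, with 1 UMI in WT.

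The makeup of the granin transcripts does not depend on how libraries are scaled. In beta cells *Pcsk1n* made up 34.0% of the UMIs of the 7 genes in WT (33.7 to 34.3), 15.2% at 1 week and 15.2% at 5 weeks. *Scg3* made up 4.10%, 10.7% and 11.3%. For both genes the mutant libraries lay close together and apart from WT. *Scg2* went from 15.9% to 19.8% and 34.1%, and *Chga* went from 30.5% to 37.6% and 24.6%. At 5 weeks *Scg2* thus had the most UMIs of the 7 in beta cells. *Vgf* made up 0.0640%, 0.455% and 0.961%. In alpha cells the *Pcsk1n* share went from 68.3% to 45.1% and 47.1%, and in delta cells from 42.7% to 21.5% and 28.0%. In the WT acinar droplets it was 49.7% (43.9 to 55.5).

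**Figure D5:**
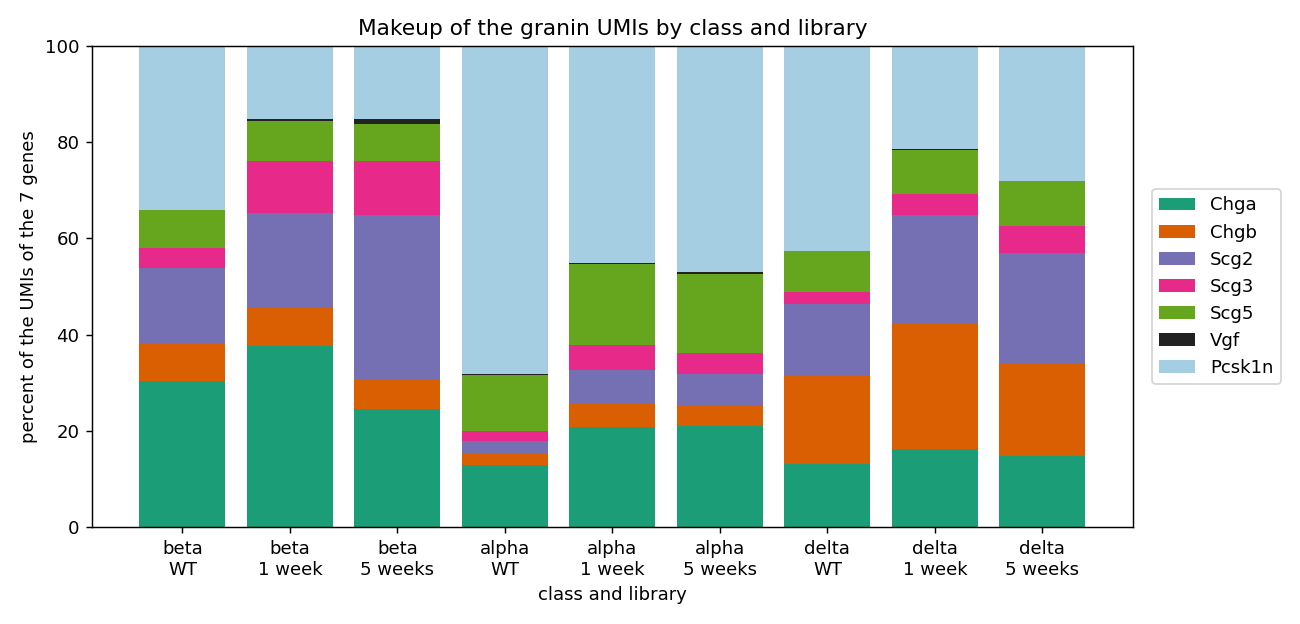
Stacked shares of the 7 genes in the sum of their UMIs, in percent, for each class and library. The Pcsk1n share of beta cells is 34.0% in WT and 15.2% in both mutant libraries, and the Scg2 share is 34.1% at 5 weeks.

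How the genes varied between cells of a class was visible at 1 week, where cells could be thinned to 5000 UMIs. Beta cells held a median of 15 *Chga* UMIs, with 7 at the 10th and 31.9 at the 90th percentile. *Scg2* had a median of 8 (2 to 16.9) and *Scg3* of 5 (2 to 9). The variance divided by the mean was 6.80 for *Chga*, 3.65 for *Scg2*, 3.05 for *Pcsk1n* and 2.90 for *Chgb*, where counting alone gives about 1. For *Scg3* it was 1.70 and for *Scg5* 1.65, and for *Vgf* 1.37 at a mean of 0.222 UMIs. At a given relative spread this ratio rises with the mean, which was 17.6 UMIs for *Chga* and 3.77 for *Scg5*. The values therefore do not rank the genes by how even they were among beta cells. *Vgf* was seen in 17.1% of beta cells at that depth (14.1 to 20.5), 12.2% of alpha cells (7.72 to 18.1) and 2 of 38 delta cells.

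The 1-week beta cells were also split by hormone makeup and by a stress gene. Only 5 cells drew at least 20% of their insulin UMIs from *Ins1*, against 496 with under 10%. None of the 7 genes passed 2-fold between them, against 35.7% of genes, and with so few cells the values describe those cells only. *Chga* was at 3431 CPM with a low and 2134 CPM with a high *Ins1* share, a log2 ratio of 0.69 that came to 0.05 without hormone UMIs. Beta cells with a UMI of *Ddit3*, the stress-response factor CHOP, numbered 176 of 8271 in WT, 459 of 562 at 1 week and 523 of 5685 at 5 weeks, after thinning to 500 UMIs, or 5000 at 1 week. None of the 7 passed 2-fold between cells with and without a *Ddit3* UMI, against 16.5%, 45.3% and 2.53% of genes. In WT *Vgf* could not be called, with 0 UMIs in cells with *Ddit3* and 22 in those without. *Scg2* was at 1919 CPM with and 1406 CPM without *Ddit3* at 1 week (log2 ratio 0.45, 0.33 to 0.56), and at 1423 and 1692 CPM at 5 weeks (log2 ratio -0.25, -0.41 to -0.10). At 1 week *Scg3* had a log2 ratio of 0.32 and *Chgb* of 0.30, and each of these turned below 0 without hormone UMIs. The median gene was itself 0.93 higher in 1-week cells with *Ddit3*, with 1469 genes over 2-fold higher and 17 lower. All of the 7 members lay below that median, and *Chga* had a log2 ratio of -0.15, or -1.08 relative to it.

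A list of 22 other granule genes (convertases, processing enzymes, granule membrane and docking proteins) was read on the same scale. In 5-week beta cells 0 of the 21 measured were over 2-fold higher and 3 were over 2-fold lower, against 6.37% and 4.18% of all genes, with a median log2 ratio of -0.24 against 0.18 for all genes. These were *Slc30a8*, the zinc transporter of insulin granules, at 53.5 CPM against 275 CPM in WT (log2 ratio -2.36), *Tmem27* at 32.6 against 122 CPM (-1.90) and *Resp18* at 568 against 1506 CPM (-1.41). *Cadps*, a granule priming factor, was at 22.4 against 44.6 CPM (-0.99). The partners of the 2 convertase-binding proteins differed little: *Pcsk1* had a log2 ratio of 0.05 and *Pcsk2* of -0.27. At 1 week 7 of the 21 were over 2-fold higher and 0 lower, against 57.6% and 2.41% of all genes, with a median of 0.55 against 1.15 for all genes. In alpha cells 4 of 19 were over 2-fold higher and 1 lower at 1 week and 0 of 19 passed at 5 weeks, against 37.1% and 4.42% of all genes either way. In delta cells 3 of 13 were higher and 0 lower at 1 week and 0 of 16 passed at 5 weeks, against 25.4% and 5.28%.

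Over the 9 combinations of class and library, the genes most like each member were ranked by Pearson's r of log2(CPM + 10), among 2253 genes with at least 20 UMIs in each combination. The points share libraries, depth and hormone load, so r is a description. *Scg5* was closest to *Pcsk2* (r = 0.99), whose enzyme its product binds, and then to *Rps3a1* (0.98). *Chgb* was closest to *Txndc15* and *Gpx1* (r = 0.99 and 0.98), *Scg2* to *Casc4* and *Sec23b* (0.97 and 0.96), and *Scg3* to *Psmd12* and *Copb2* (0.96 and 0.95). *Pcsk1n* was closest to *Atp5g2* and *Josd2* (both 0.97) and *Chga* to *Cox6a1* and *Mrps16* (0.89 and 0.87). *Vgf* had no close match: *H2afz* and *Cdkn1a* came nearest, at 0.68 and 0.67. It had only 1, 6 and 20 UMIs in delta cells of WT, 1 week and 5 weeks. In WT beta cells it was at 3.68 CPM, under the added 10, so all r values of *Vgf* rest partly on few counts. Among the 7 genes themselves the highest values were 0.87 for *Scg5* with *Pcsk1n* and 0.81 for *Chgb* with *Scg2*, and the lowest was -0.64 for *Chgb* with *Vgf*.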

How the data were processed

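Deposited values are raw UMI counts per gene and barcode, 1 table per library. Per the methods the authors sorted live cells, captured them on 10X Genomics Chromium, and used CellRanger 3.1 for alignment (mm10) and UMI counting. In WT only, they removed cells with high levels of 2 hormones and DoubletFinder doublets, and kept 12000 cells. The submitters' processing notes also name bcl2fastq 2.17.1.14 and Seurat 3.1.4. No doublet caller was run here.

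The members, class limits, marker and gene lists were chosen with earlier results of these data known. UMIs were summed per class and library in Python 3.11.15 (numpy 2.4.6, scipy 1.17.1, matplotlib 3.10.9). Cells meeting the beta and delta rules were kept in both, 128 at 5 weeks. Non-endocrine droplets had at least 20% acinar UMIs, or at least 3 markers and 0.5% of UMIs of another type, limits set after the data were seen. Levels carry exact Poisson, shares exact binomial and ratios exact conditional 95% intervals. Poisson counts were simulated at the totals of the whole WT and 5-week libraries, over 10500 genes. In them 95% of the intervals of 200 changed genes held the true ratio. The counts were drawn from the model that the intervals assume, so this does not cover spread between cells or animals. A call is a ratio past 2-fold, and backgrounds use genes with at least 100 UMIs over both sides. A count of 0 was taken to allow 3 counts. No test was made, because there is 1 library per condition. Named genes are the 7 members, the 4 listed granule genes with the largest ratio in 5-week beta cells, the 2 genes most like each member, and genes a result turns on. Alternatives for scaling, cell choice, depth and free RNA are given in the closing section. Promoters and gene positions are from RefSeq, GRCm38.p6.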

Additional observations from a re-analysis of the deposited data

Results flagged for a closer look

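Ratios to WT of opposite sign in different cell types, each with a counting interval that leaves out 0, were looked for, and 2 genes showed them. At 1 week *Scg5* had a log2 ratio of 0.71 in beta cells and 0.54 in delta cells but -0.07 in alpha cells. At 5 weeks *Chgb* had -0.49 in beta cells and -0.19 in delta cells but 0.38 in alpha cells. With 1 library per condition the differences were not tested. For *Scg5* the sign in beta cells depends on the scaling, since the ratio was 0.14 without hormone UMIs and -0.44 relative to the median gene, and in alpha cells it was -0.35 and -0.71 on those scales. After the scaled subtraction of non-endocrine UMIs it was 0.10 in alpha cells, so the opposite sign was lost. For *Chgb* the signs were kept on both scales, but the ratio in delta cells was 0.48 after the scaled subtraction, which leaves the opposite signs of beta (-0.38) and alpha cells (0.80).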

How the results depend on the processing

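No paired analysis was possible because each condition has 1 library, and for the same reason no replicate could be left out. The number of the 7 genes past 2-fold, over 16 comparisons and their alternatives, stayed within 1.5 times its main value in 129 cases and did not in 25. With a 1.5-fold call it was 6 (beta, 1 week), 3 (alpha, 1 week), 6 (delta, 1 week), 3 (delta, 5 weeks), 6 (alpha to beta, 1 week), 4 (*Ins1* split) and 1 (*Ddit3* split, WT). With non-endocrine UMIs subtracted in full it was 4 in beta and 4 in alpha cells at 1 week, and 5 in alpha and 3 in delta cells at 5 weeks. With the scaled subtraction, added after seeing the data, it was 5 in beta and 2 in alpha cells at 1 week and 2 in delta cells at 5 weeks. Without hormone UMIs it was 1 in delta cells at 1 week, and 2 in WT and 2 at 1 week between delta and beta cells. With the median gene at 0 these were 1, 2 and 3, and the *Ddit3* split at 1 week gave 1. Thinning to 500 UMIs gave 5, and the limits of the other libraries 4, in delta cells at 1 week. The 1-week limits in all libraries gave 4 in beta cells at 1 week and 2 between delta and beta cells at 5 weeks. *Vgf* in delta cells at 5 weeks turned to -1.96 with RNA of the other classes subtracted, another alternative added after seeing the data. Of 948 ratios of single genes under an alternative, only 512 stayed within the counting interval of the reported one. Of the 948, 76 had the opposite sign to the reported one, in 41 of 111 pairs of gene and comparison. Among reported ratios past 2-fold this happened once, for that *Vgf* value. The share of all genes past 2-fold ran from 9.55% to 44.0% in 5-week beta cells and from 19.7% to 80.1% in 1-week beta cells, from 4.12% to 52.3% in 5-week alpha cells and from 5.12% to 48.6% in 5-week delta cells, lowest with the median gene at 0 and, at 5 weeks, highest with the full subtraction. Alternatives that left under 10 cells gave no value, and the causes of these shifts were not tested. Depth limits *Vgf* in WT and in delta cells, and the 38 delta cells at 1 week.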

Other observations

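Barcodes outside the 3 classes, and not among the non-endocrine droplets, numbered 282 in WT, 1502 at 1 week and 1097 at 5 weeks. In WT they carried *Pcsk1n* at 4574 CPM and *Chga* at 1959 CPM, and *Vgf* gave 2 UMIs. At 1 week *Vgf* was at 33.3 CPM (27.7 to 39.7) and *Scg3* at 523 CPM, and at 5 weeks *Vgf* was at 46.9 CPM (40.1 to 54.5) and *Scg3* at 584 CPM. *Pcsk1n* made up 48.4% of the UMIs of the 7 genes in these WT barcodes, 21.2% at 1 week and 33.0% at 5 weeks. Summed over these barcodes *Ins2* and *Gcg* were at 313340 and 57427 CPM in WT, 93395 and 11305 CPM at 1 week and 349191 and 113411 CPM at 5 weeks, and the barcodes were assigned to no cell type.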
